A study of Mus musculus with 2 samples.

Results

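Adventitial-type fibroblasts of mouse skin tumours are described here in 2 libraries of droplet single-cell RNA sequencing, which counts the RNA molecules of each cell by unique molecular identifiers (UMIs). The cells were chosen from the UMI counts themselves. A barcode had to have at least 500 genes, at most 15% of UMIs from mitochondrial genes and at least 2000 UMIs. It also needed at least 100 UMIs of Col1a1, Col1a2, Col3a1 and Dcn together per 10000, and under 2 of the mural cell gene Rgs5 per 10000. In the last step the summed UMIs of Pi16, Clec3b, Dpt and C3 had to exceed those of Tnc, Postn and Col12a1. This found 1037 of the 30298 deposited barcodes, 868 of 22259 in Eed iKO-D and 169 of 8039 in Ctrl-D.

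The Eed iKO-D library came from tumours of K14CrERT2;Eed flox/flox mice that were given hydroxyl-tamoxifen, and the Ctrl-D library from tumours of Eed flox/flox mice that were given its solvent, ethanol. Both groups carried the floxed Eed alleles, had DMBA, a carcinogen, on the dorsal skin, and were collected at 5 months of age. Hydroxyl-tamoxifen was applied on 4 days starting at postnatal day 50, and DMBA once a week for up to 20 weeks. The Eed protein belongs to the core of PRC2, the Polycomb complex that methylates histone H3 on lysine 27. The Cre recombinase is driven by the keratin 14 promoter, which is active in basal keratinocytes and not in dermal fibroblasts, so the fibroblasts here were neighbours of the targeted cells. Strain, sex and the number of animals or tumours in a library are not given in the sources used here, and the labels call the samples epidermal cancer cells although whole tumours were dissociated. With 868 and 169 cells from 1 library a group there is no replicate, so no test was made, and genotype, treatment with tamoxifen, animal and library cannot be told apart.

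Adventitial fibroblasts sit around vessels and in the deep fascia of many organs, skin included. In mice they are known by Pi16, a secreted peptidase inhibitor-like protein, and by Dpp4, a dipeptidyl peptidase, and they are regarded as a progenitor-like state that other fibroblasts can arise from. They secrete complement, chemokines and matrix proteins of loose connective tissue. Tumour-side fibroblasts differ from them in making tenascin C (Tnc), periostin (Postn), collagen XII (Col12a1) and contractile proteins.

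The Eed iKO-D library held 289511009 UMIs and the Ctrl-D library 120500892, and the labels give a target of 8013 to 19511 captured cells per library. RNA of other cells was more frequent in Eed iKO-D. Its adventitial-type cells had a median of 19117 UMIs, against 7767 in Ctrl-D. Gm42418, which overlaps a ribosomal RNA repeat, took a median of 8.98% of their UMIs in Eed iKO-D and 0.443% in Ctrl-D. The mitochondrial share had a median of 1.48% in Eed iKO-D and 0.271% in Ctrl-D. The 10 keratinocyte markers summed to 3367 per 1000000 UMIs (CPM) in the Eed iKO-D cells and 686 CPM in the Ctrl-D cells, and none of the 10 was at 0 in either. The 14 leukocyte markers summed to 776 CPM and 24.6 CPM in the same order of libraries, with Il1b and Lyz2 among the 5 at 0 in Ctrl-D. Sums of the keratinocyte markers in the keratinocyte gate were 37251 CPM in Eed iKO-D and 46451 CPM in Ctrl-D. The libraries shared 49 barcodes, none of them an adventitial-type cell. In Eed iKO-D 612 adventitial-type cells had Xist and no Y-linked UMI and 103 had the converse, and in Ctrl-D these were 67 and 68 cells. The other cells had both kinds of UMI or neither.

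Adventitial-type cells made up a smaller part of the fibroblasts in Eed iKO-D. They were 28.1% of the 3085 cells that met every other step of the rule in Eed iKO-D (95% Clopper-Pearson interval 26.6 to 29.8), against 63.8% of 265 in Ctrl-D (57.7 to 69.6). Of all barcodes that passed the filters on genes, mitochondrial share and UMIs they were 4.7% in Eed iKO-D (4.4 to 5.02) and 2.4% in Ctrl-D (2.05 to 2.78). The order of the libraries therefore depends on the denominator, since the other fibroblasts numbered 2217 in Eed iKO-D and 96 in Ctrl-D. These intervals, and all below, cover counting error only.

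The last step of the rule cut through a thinly filled border in Ctrl-D and a fuller one in Eed iKO-D. The median excess of the Pi16, Clec3b, Dpt and C3 sum over the Tnc, Postn and Col12a1 sum was 75 UMIs in Eed iKO-D and 58 in Ctrl-D. Just inside, with an excess of 1 to 3 UMIs, were 63 cells in Eed iKO-D and 1 in Ctrl-D, and just outside, at -2 to 0, were 122 and 4 cells of the same libraries. In Eed iKO-D, Tnxb stood at 461 CPM just inside and 260.1 CPM just outside, and Sfrp4 at 382 and 135 CPM, so the border was gradual there. No single gene of the sum decided membership for most cells. Leaving Pi16, Clec3b, Dpt or C3 out of the sum kept 781, 785, 745 and 758 of the 868 Eed iKO-D cells, and 168, 163, 163 and 168 of the 169 Ctrl-D cells.

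**Figure D1:**
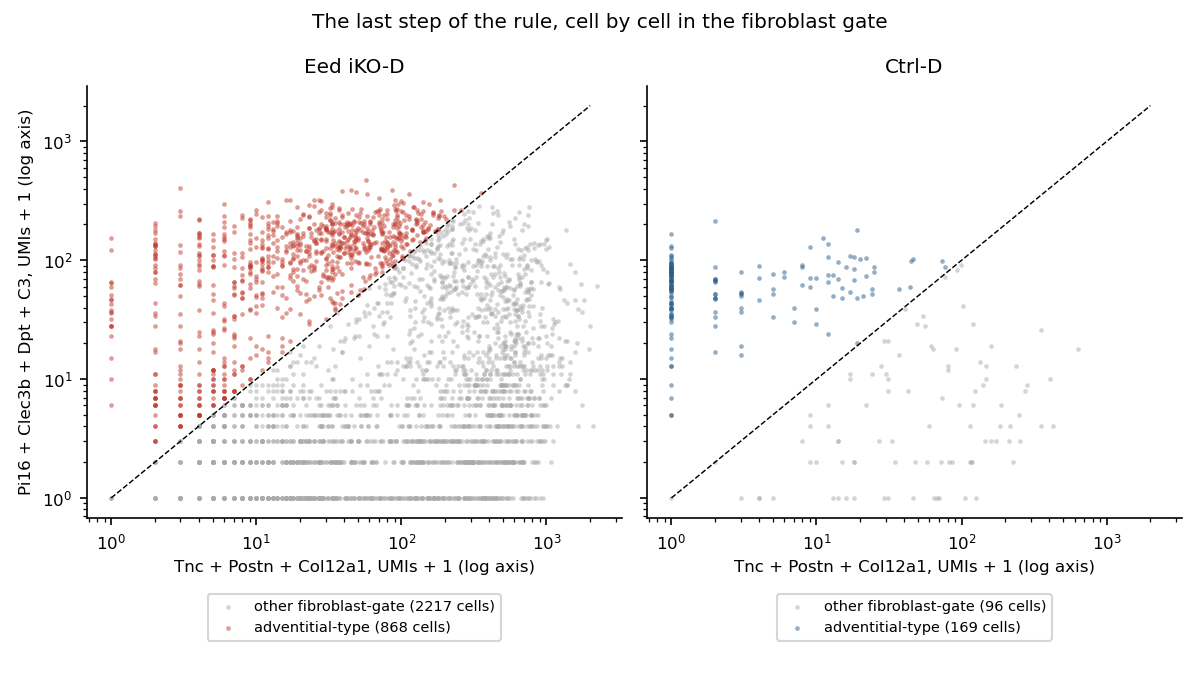
Each point is 1 cell of the fibroblast gate, Eed iKO-D on the left and Ctrl-D on the right. The x axis gives the Tnc, Postn and Col12a1 UMIs and the y axis the Pi16, Clec3b, Dpt and C3 UMIs, both plus 1 on log axes, and the dashed line is where the sums are equal. The 868 coloured Eed iKO-D cells reach down to the line, while most of the 169 Ctrl-D cells stand well above it.

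The markers of the named cell type were high in both libraries, and these levels describe the choice because 4 of the genes made it. Pi16, at chr17:29317680-29330593 of GRCm38, had 1324 CPM in the Eed iKO-D cells and 1534 CPM in the Ctrl-D cells, against 186 and 57.8 CPM in the other fibroblasts of those libraries. Clec3b, which encodes tetranectin, at chr9:123150946-123157432, had 1263 CPM in Eed iKO-D and 2582 CPM in Ctrl-D. Dpt, the matrix protein dermatopontin, had 1784 and 1592 CPM, and C3, the central complement component, had 1767 and 1818 CPM in the same order. Outside the rule, Tnxb (tenascin X) had 795 CPM in Eed iKO-D and 685 CPM in Ctrl-D, and Sfrp4, a secreted Wnt antagonist, 615 and 457 CPM. Leukocytes of the same libraries had 3.25 and 0.317 CPM of Tnxb, and 2.59 and 0 CPM of Sfrp4. All 6 markers were higher in the adventitial-type cells than in the keratinocyte, leukocyte and endothelial gates and in the other fibroblasts of both libraries.

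**Figure D2:**
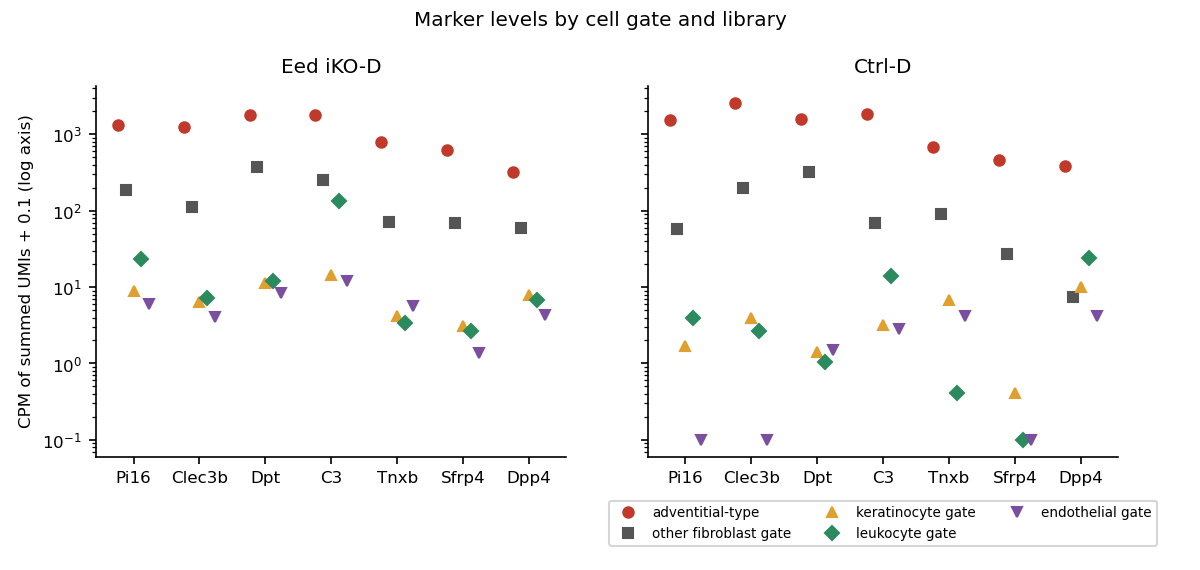
Levels of the 4 rule genes and of Tnxb, Sfrp4 and Dpp4, in CPM of the summed UMIs of each cell gate plus 0.1 on a log axis, with Eed iKO-D on the left and Ctrl-D on the right. The adventitial-type cells are highest for each gene in both libraries, for example 795 CPM of Tnxb in Eed iKO-D and 685 CPM in Ctrl-D.

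The rule genes were also found cell by cell once depth was equalised, which describes the choice, since the rule picked the cells on these UMIs. The same holds for the shares of Tnc and Postn, which the rule required the sum to exceed. With every cell thinned to 2000 UMIs, Pi16 was seen in 73.4% of the Eed iKO-D cells and 78.1% of the Ctrl-D cells (90.8% and 91.1% unthinned). In leukocytes, taken as the level that free RNA gives, Pi16 was seen in 6.63% in Eed iKO-D and 0.598% in Ctrl-D after thinning (19% and 1.2% unthinned, at medians of 7918 and 4310 UMIs per cell). All 4 rule genes were found together in 47.5% of the thinned Eed iKO-D cells and 59.2% of the thinned Ctrl-D cells. Tnxb was seen in 68.4% of Eed iKO-D and 70.4% of Ctrl-D cells, against 0.928% of the leukocytes in Eed iKO-D and 0 of 502 in Ctrl-D, which allows a share of up to 0.598%. Sfrp4 was seen in 48.4% of Eed iKO-D and 49.1% of Ctrl-D cells, against 0.603% and 0% of the leukocytes. The tumour-side gene Tnc was seen in 16.4% of the Eed iKO-D cells, at the 17.3% of that library's leukocytes, and in 1.18% of the Ctrl-D cells, under the 2.39% of the leukocytes. Its share in adventitial-type cells did not stand above that in leukocytes in Ctrl-D and was close to it in Eed iKO-D, where its level was 147 CPM in adventitial-type cells and 118 CPM in leukocytes. Postn stood above the share in leukocytes, in 68.1% of Eed iKO-D and 32% of Ctrl-D cells, against 20.2% and 2.99% of the leukocytes.

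Set against the other cells of the fibroblast gate, which made Tnc, Postn and Col12a1, the adventitial-type cells had a broad programme of their own in both libraries. The rule divided the cells on this contrast, so the values describe the choice. Of 9575 genes measured in both libraries, 474 were at least 2-fold higher in the adventitial-type cells in both (4.95%) and 487 at least 2-fold lower (5.09%). Of the 28 adventitial markers outside the rule, 26 were at least 2-fold higher in Eed iKO-D, where 7.23% of all genes were, and 27 in Ctrl-D, where 8.92% were. Among the genes most separated in both libraries was Cxcl13, a chemokine that draws B cells, at 296 CPM in adventitial-type and 4.35 CPM in other fibroblasts of Eed iKO-D, and 274 and 5.12 CPM in Ctrl-D. Sema3e, a repulsive guidance ligand for vessels and axons, was 24.1 times higher in Eed iKO-D and 61.5 times in Ctrl-D. Scara5, a ferritin receptor, was 18.3 and 21.2 times higher, and Pcolce2, which enhances procollagen cleavage, 11.7 and 10.6 times, in the same order. Cadm3, a cell adhesion molecule, Galnt15, a glycosyltransferase, Ly6c1, a surface antigen, Gsn, the actin-severing gelsolin, and Opcml, an adhesion molecule, were among the same 12 genes. So were Sfrp4, the complement component C7, and Edn1, the vasoconstrictor endothelin 1.

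The 8 genes furthest in the other direction included a tenascin, osteopontin and matrix-degrading enzymes, on the contrast that Tnc, Postn and Col12a1 made in the rule. Tnn, a tenascin, had 4.63 CPM in the Eed iKO-D adventitial-type cells and 445 CPM in the other fibroblasts, and in Ctrl-D 0 UMIs against 179 CPM. The collagenase Mmp13 had 36.7 against 939.6 CPM in Eed iKO-D and 1 UMI against 293 CPM in Ctrl-D. Spp1 (osteopontin), Mmp9, Crabp1, a retinoic acid binding protein, Kif26b, a kinesin, Brinp3 and the adhesion receptor Adgrl3 made up the 8 genes. Acta2, the smooth muscle actin of myofibroblasts, was seen in 3.11% of thinned Eed iKO-D and 1.18% of Ctrl-D adventitial-type cells, against 32% and 34.4% of the other fibroblasts and 6.08% and 0.398% of the leukocytes. Acta2 was named after its values were seen.

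The adventitial-type cells were not uniform. Dpt was spread less widely than Pi16 in Eed iKO-D, with 3.87 UMIs per 10000 at the 10th percentile of cells and 30.5 at the 90th, while Pi16 ran between 0.561 and 31.2. Cxcl13 was restricted to a part of the cells, with a UMI in 293 of 868 Eed iKO-D cells and 60 of 169 Ctrl-D cells, and the same held for Sema3e, with 374 and 68 cells. After thinning, Cxcl13 was seen in 20.2% of Eed iKO-D and 20.7% of Ctrl-D cells, and Sema3e in 18.3% and 22.5%. Leukocytes had 0.788% and 0% for Cxcl13, and 0.325% and 0.398% for Sema3e. In Ctrl-D the methyltransferase gene Inmt was seen in 68 cells and the matrix protein gene Myoc in 30, and 5 cells held 49% of all Myoc UMIs. In Eed iKO-D these were 23 and 36 cells. The fibroblast chemokine gene Cxcl14 was also uneven, with 19.1% of its UMIs in 5 Eed iKO-D cells and 55.7% in 5 Ctrl-D cells.

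The libraries were then compared within the adventitial-type cells, on the UMIs summed over 868 Eed iKO-D and 169 Ctrl-D cells, 17264991 and 1462421 in all. Eed, the targeted gene, had 23.2 CPM in Eed iKO-D and 24.6 CPM in Ctrl-D, a ratio of 0.944 (95% exact conditional binomial interval 0.67 to 1.37). Parentheses below give this ratio of Eed iKO-D over Ctrl-D and, where a range follows it, the same interval. In the keratinocyte gate, where the Cre is active, it had 43.9 and 52.6 CPM. The labels do not say which exons the loxP sites flank, and a count of 3' ends outside them checks nothing about the deletion. Of 13656 genes with at least 20 UMIs over both libraries, 2138 were at least 2-fold higher in Eed iKO-D (15.7%) and 1626 at least 2-fold lower (11.9%), and the median gene stood at a log2 ratio of -0.04. Scaling by trimmed means (TMM), which shifted the median gene by 0.14, gave 2439 higher and 1160 lower, and leaving Gm42418 out of the totals, a shift of 0.13, gave 2427 and 1173.

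The adventitial genes themselves split, with most of the rule genes under 1.5-fold apart between the libraries and 8 of the 28 other markers at least 2-fold lower in Eed iKO-D. The ratio of Eed iKO-D over Ctrl-D was 0.863 for Pi16, 1.12 for Dpt, 0.972 for C3 and 0.489 for Clec3b (0.473 to 0.506), as a description, since these chose the cells. The ratio of Dpt was 0.874 among cells with Xist and no Y-linked UMI and 0.869 among the converse cells. Its ratio over all cells thus lay on the other side of 1 from both. Of the 28 adventitial markers outside the rule, 1 was at least 2-fold higher and 8 were at least 2-fold lower, beside 15.7% and 11.9% of all genes tested, with a median log2 ratio of -0.47. Igfbp6, which binds insulin-like growth factor II, had 491 CPM in Eed iKO-D and 1627 CPM in Ctrl-D, a ratio of 0.302 (0.288 to 0.316). Gsn had 1828 against 5890.2 CPM (0.31, 0.303 to 0.318), Pcolce2 228 against 691 CPM (0.33, 0.308 to 0.354) and Limch1, an actin stress fibre regulator, 19.8 against 62.9 CPM (0.314, 0.249 to 0.40). Tnxb (1.16), Sfrp4 (1.34), Dpp4 (0.836) and Cxcl13 (1.08) were all under 2-fold apart over all adventitial-type cells. Cxcl13 had a ratio of 1.44 (1.14 to 1.84) among cells with Xist and no Y-linked UMI. Among the converse cells it was 2.61 (2.27 to 3.01). The other fibroblasts of these libraries also had less Igfbp6, Gsn and Pcolce2 in Eed iKO-D, with ratios of 0.464, 0.408 and 0.299, and Limch1 there had a ratio of 1.31.

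A serine protease inhibitor of the plasminogen system led the genes higher in Eed iKO-D. Serpinb2, plasminogen activator inhibitor 2, at chr1:107511423-107535478, had 602 CPM in Eed iKO-D and 2.05 CPM in Ctrl-D, where it rested on 3 UMIs, a ratio of 293 (100.4 to 1423). It was seen in 19.1% of thinned Eed iKO-D cells and 0 of 169 Ctrl-D cells, which allows a share of up to 1.78%, against 8.3% and 2.39% of the leukocytes, and 5 Eed iKO-D cells held 22.1% of its UMIs. Keratinocytes had 230.1 CPM in Eed iKO-D and 287 CPM in Ctrl-D, so the Eed iKO-D fibroblasts stood above the keratinocytes of their own library.

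The other genes of the 12 highest included some that were as much higher in the other gates. Rnd1, an atypical small GTPase, had 184 CPM in Eed iKO-D and 19.8 CPM in Ctrl-D (9.26, 6.43 to 13.8), Lmcd1, a LIM domain protein, 66.1 CPM against 1 UMI (96.7, 17.3 to 3824), and Il1rl1, the receptor for interleukin 33, 80.8 against 6.15 CPM (13.1, 6.9 to 28.8). The transcription factor gene Runx1 had 349 against 46.5 CPM (7.51, 5.92 to 9.69), and it was seen in 40.2% of thinned Eed iKO-D and 7.1% of Ctrl-D cells, and in 50.4% and 38% of leukocytes, which make it themselves. Cd3e, a T cell receptor subunit by function, had 92.7 CPM in the Eed iKO-D cells, above the 20.5 CPM of that library's leukocyte gate (which was partly chosen on it), and 4.79 CPM in Ctrl-D cells, while Cd3d and Cd3g, its partner subunits, had 8 and 22 UMIs in the Eed iKO-D cells. Camk1d, a kinase, had ratios of 11.6 in adventitial-type cells, 22.2 in keratinocytes and 20.1 in leukocytes, and Cdk8, a Mediator kinase, of 6.88, 8.49 and 12.1. AY036118, the nuclear RNA Neat1 and the transcription factor gene Glis3 were likewise higher in all 3 gates. AY036118 lies at chr17:39847113-39848035. Whether it counts the same RNA as Gm42418, which the naming left out as an unnamed gene model, was not tested. All 12 were also at least 2-fold higher in the other fibroblasts of Eed iKO-D, where 13.1% of all genes were.

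The genes lowest in Eed iKO-D were mostly ones with little expression outside adventitial-type cells. Smpd3, neutral sphingomyelinase 2, at chr8:106252548-106337988, had 33 CPM in Eed iKO-D and 455 CPM in Ctrl-D, a ratio of 0.0725 (0.0647 to 0.0812), and was seen in 4.38% and 41.4% of thinned cells, against 0.139% and 0.199% of the leukocytes. Inmt, which methylates indoles, at chr6:55170626-55175043, had 2.72 against 174 CPM (0.0157, 0.0112 to 0.0215) and was seen in 1.04% of thinned Eed iKO-D and 24.9% of Ctrl-D cells, against 0% and 0.199% of the leukocytes. Myoc (myocilin) had 13.4 against 201 CPM (0.0668, 0.056 to 0.0797) and the Mas-related receptor gene Mrgprg 1.39 against 94.4 CPM (0.0147, 0.00913 to 0.0228). Tdo2, which degrades tryptophan, Nrcam, a neural adhesion molecule, Rbp4, the retinol carrier, Prex2, a Rac exchange factor, and Serpina3c followed, with ratios of 0.037, 0.11, 0.0914, 0.132 and 0.127. Prex2 was also an endothelial gene, at 462 CPM in the endothelial gate of Eed iKO-D and 33.1 CPM in that of Ctrl-D. Socs1, the inhibitor of interferon signalling, had 33.2 against 194 CPM (0.172, 0.149 to 0.199). The polyubiquitin gene Ubb was lower in every gate, with ratios of 0.17 in adventitial-type cells and 0.24 in keratinocytes. Of the 12, 6 were also at least 2-fold lower in the other fibroblasts, beside 14.6% of all genes, where Inmt, Mrgprg, Tdo2 and Serpina3c were each under 1 CPM in both libraries.

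**Figure D3:**
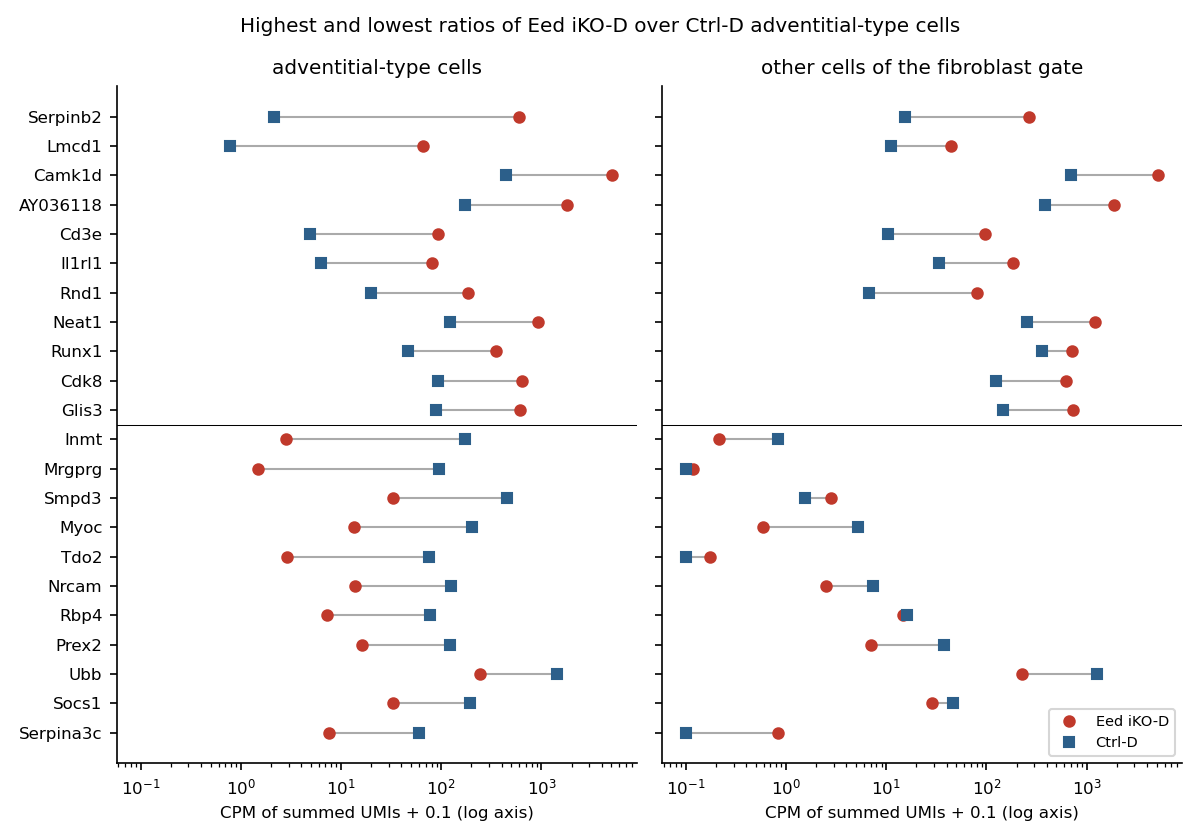
CPM plus 0.1 on a log axis for 11 of the 12 highest and, under the line, 11 of the 12 lowest ratios, in adventitial-type cells on the left and other cells of the fibroblast gate on the right. Circles are Eed iKO-D and squares Ctrl-D, as for Smpd3 with 33 CPM in Eed iKO-D and 455 CPM in Ctrl-D adventitial-type cells.

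Collagens tended higher in the Eed iKO-D adventitial-type cells. The genes of the rule's collagen step, given as a description, had 11510 CPM in Eed iKO-D and 4218 CPM in Ctrl-D for Col1a1 (2.73, 2.66 to 2.8), 12936 and 5036 CPM for Col1a2 (2.57), and 17735 and 8652 CPM for Col3a1 (2.05). Decorin (Dcn), which regulates collagen fibrils, went the other way, with 6319 CPM in Eed iKO-D and 9220.3 CPM in Ctrl-D (0.685, 0.673 to 0.698). Of 23 other collagen chains, 8 were at least 2-fold higher and 1 was lower, where 15.7% and 11.9% of all genes were, with a median log2 ratio of 0.75 (0.88 with Col11a1 at its bound). Col23a1, a transmembrane collagen, had 22.2 against 4.1 CPM, and the fibrillar Col24a1 20.9 CPM against 1 UMI (30.5, 5.44 to 1208). Col7a1, which anchors the epidermis, had 16.9 CPM against 2 UMIs (12.3, 3.38 to 102), and Col11a1 was at least 4.4-fold higher, with 0 UMIs in Ctrl-D, set at a floor of 3 over all its adventitial-type cells. In the other fibroblasts the same list had a median of -0.01, and Col1a1 a ratio of 0.992. Collagen RNA was also found outside fibroblasts in Eed iKO-D, where keratinocytes had 348 CPM of Col1a1, against 2.85 CPM in Ctrl-D, and its part in these ratios was not tested.

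Tumour-side fibroblast genes also tended higher in the Eed iKO-D adventitial-type cells, at levels under those of the other fibroblasts. Of 23 measured myofibroblast and tumour fibroblast genes outside the rule, 10 were at least 2-fold higher and 2 lower, beside 15.7% and 11.9% of all genes, and the median log2 ratio was 0.93. Lrrc15, a marker of tumour myofibroblasts, had 44.6 CPM in Eed iKO-D and 10.9 CPM in Ctrl-D, against 387 and 647 CPM in the other fibroblasts. Sdc1 (syndecan 1), which keratinocytes also make, had 66.4 against 13.7 CPM, and Inhba, the activin A subunit, 21.3 CPM against 1 UMI (31.1, 5.54 to 1231). Against the other fibroblasts, 16 genes of this list were at least 2-fold lower in Eed iKO-D (14.6% of all genes) and 18 in Ctrl-D (12.9%), as a description. The rule genes Postn, at 1233 and 515 CPM, and Col12a1, at 447 and 108 CPM, were also higher, Eed iKO-D first, and they are given as a description. Acta2 had 13.3 CPM in Eed iKO-D and 10.3 CPM in Ctrl-D (1.3, 0.771 to 2.36). The 22 elastic fibre genes had a median of 0.02, with 3 higher, a share close to that of all genes. Of these, Fbn2 (fibrillin 2) had 259 against 82.1 CPM, the collagen cross-linking enzyme gene Lox 675 against 308 CPM, and Ltbp2, which binds elastic fibres, 17.7 CPM against 1 UMI (25.8, 4.6 to 1024). Of the 10 measured leucine-rich proteoglycans, 1 was higher and 2 were lower, the higher one being Fmod (fibromodulin), with 8.8 CPM in Eed iKO-D against 1 UMI in Ctrl-D (12.9, 2.28 to 512).

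Genes of antigen presentation by class I molecules were lower, and genes of the interferon response tended lower, in the Eed iKO-D adventitial-type cells. Of 11 class I presentation genes, 8 were at least 2-fold lower and 0 higher, where 11.9% and 15.7% of all genes were, and the median log2 ratio was -1.08. The class I heavy chain gene H2-D1 had 381 CPM in Eed iKO-D and 1268 CPM in Ctrl-D (0.30, 0.285 to 0.316). The immunoproteasome genes Psmb9, at 12.6 against 65.6 CPM (0.192, 0.151 to 0.247), and Psmb8, at 46.2 against 146 CPM (0.317, 0.272 to 0.371), were lower too. Of 20 interferon response genes 5 were at least 2-fold lower and 0 higher, beside the same 11.9% and 15.7%, with a median of -0.87. Isg15, a ubiquitin-like modifier, had 42.9 against 134 CPM (0.32, 0.273 to 0.377), the transcription factor gene Irf1 136 against 371 CPM (0.367, 0.334 to 0.404), and the GTPase gene Igtp 6.6 against 14.4 CPM (0.46, 0.287 to 0.771). In the other fibroblasts the medians were -1.36 for the class I list and -0.89 for the interferon list. The class I list summed to 1607 CPM in Eed iKO-D and 3657 CPM in Ctrl-D adventitial-type cells. It was lower in Eed iKO-D in keratinocytes too, at 1098 against 4308 CPM, and in leukocytes, at 3317 against 7412 CPM. Isg15 was seen in 5.41% of thinned Eed iKO-D and 21.9% of Ctrl-D adventitial-type cells, and in 9.88% and 16.7% of leukocytes, which make it themselves.

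The interferon-stimulated response element is the site that interferon-induced factors bind, and its core letters were looked for in the promoters of these genes. The letters searched were GAAA, any 2 bases and GAAA again, on either strand, in the windows of 250 bases before to 50 after each RefSeq start of GRCm38. Of 17 interferon response genes with a promoter in the RefSeq table, 10 held the letters (58.8%), as did 2 of 9 class I genes (22.2%), against 3.99% of all 27025 genes in the table. Isg15 and Igtp are shown as examples that were at least 2-fold lower and held the letters, as Rsad2 also did. Socs1 is shown because it was among the 12 lowest of all genes. Of the lower genes named above, H2-D1, Psmb9, Psmb8 and Irf1 did not hold the letters. Whether the letters went with lower levels was not tested. Capitals mark the matches. The Isg15 window is chr4:156200769-156201068 on the minus strand, that of Igtp chr11:58199306-58199605 on the plus strand, and that of Socs1 chr16:10785487-10785786 on the minus strand. The 3 matches in Isg15 and the 2 in Socs1 overlap one another, and Igtp has 1.
Isg15: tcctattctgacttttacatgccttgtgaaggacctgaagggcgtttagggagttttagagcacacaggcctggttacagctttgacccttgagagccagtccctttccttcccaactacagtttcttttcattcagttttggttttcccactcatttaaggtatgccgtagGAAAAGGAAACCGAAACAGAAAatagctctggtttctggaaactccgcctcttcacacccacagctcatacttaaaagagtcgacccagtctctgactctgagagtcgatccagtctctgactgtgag
Igtp: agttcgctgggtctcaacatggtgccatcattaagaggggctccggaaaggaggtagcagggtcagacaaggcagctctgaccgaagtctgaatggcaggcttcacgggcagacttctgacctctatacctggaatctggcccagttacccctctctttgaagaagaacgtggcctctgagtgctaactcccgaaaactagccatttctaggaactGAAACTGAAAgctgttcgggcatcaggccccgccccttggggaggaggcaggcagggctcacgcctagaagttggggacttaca
Socs1: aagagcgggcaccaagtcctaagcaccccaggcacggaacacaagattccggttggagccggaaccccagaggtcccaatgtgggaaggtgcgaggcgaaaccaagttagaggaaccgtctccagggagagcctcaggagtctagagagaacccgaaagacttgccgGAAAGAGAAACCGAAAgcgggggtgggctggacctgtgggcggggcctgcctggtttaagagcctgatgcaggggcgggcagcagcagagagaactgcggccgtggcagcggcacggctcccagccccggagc
A match of letters is a description and does not show that a factor bound there in these cells.

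**Figure D4:**
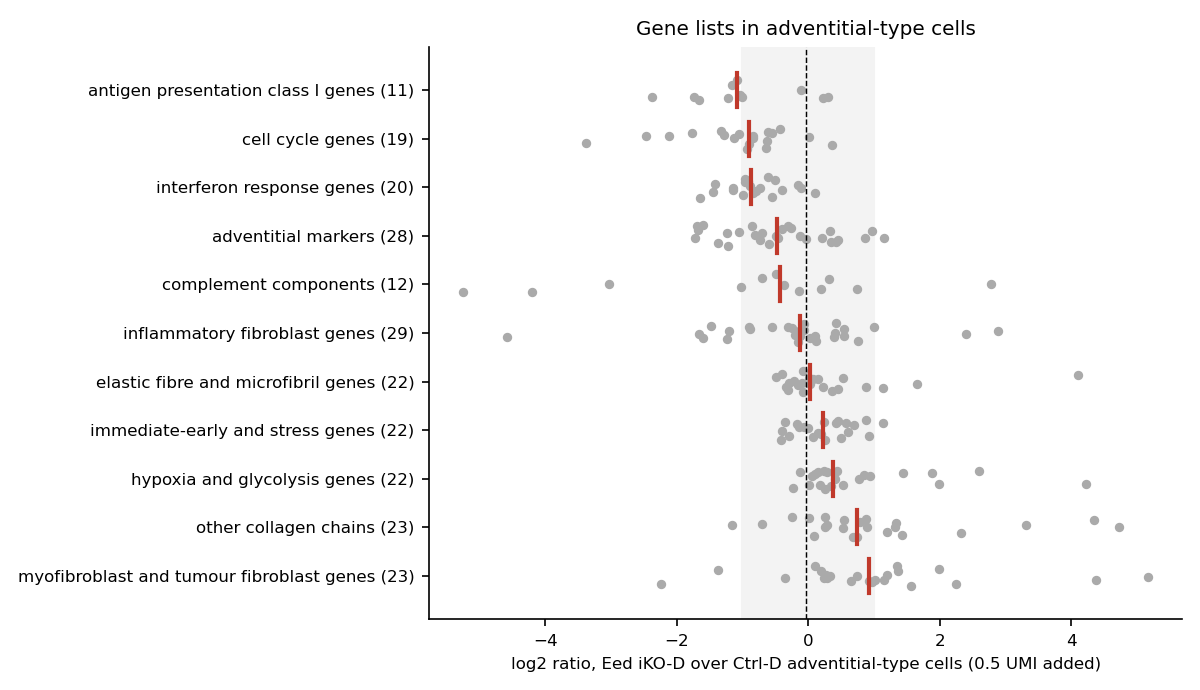
Log2 ratio of Eed iKO-D over Ctrl-D adventitial-type cells for the measured genes of 11 lists, with their number in parentheses. Grey points are genes, red bars list medians, the dashed line is the median of all 13656 genes and the shaded band is under 2-fold. Points of genes with few UMIs depend on the 0.5 UMI added. The class I median stands at -1.08 and the myofibroblast median at 0.93.

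Inflammatory genes, which these cells are known for, had single members far apart in either direction. Of 29 inflammatory fibroblast genes, 3 were higher and 6 lower, beside 15.7% and 11.9% of all genes. Their median log2 ratio was -0.12, a sign that turned with TMM (0.02), without Gm42418 (0.01), and among Xist-only (0.22) and Y-only cells (0.27). The eosinophil attractant Ccl11 had 249.7 CPM in Eed iKO-D and 754 CPM in Ctrl-D (0.331, 0.31 to 0.354) and was seen in 32.5% and 65.7% of thinned cells, against 1.11% and 0.996% of the leukocytes. Cxcl14 had 377 against 1196 CPM (0.315, but 1.02 among Y-only cells), and 5 Ctrl-D cells held 55.7% of its UMIs there. The interferon-induced T cell attractant Cxcl10 had 36.2 against 101 CPM (0.36), and Ccl19, a dendritic cell and T cell attractant, 1.56 against 37.6 CPM (0.0416). The cytokine gene Il6 had 472 and 462 CPM (1.02, 0.945 to 1.11), the neutrophil attractant Cxcl1 1886 and 2166 CPM (0.87) and Cxcl12, which retains leukocytes and stem cells, 511 and 609 CPM (0.839). Il6, Cxcl1, Cxcl12 and the next gene were named after their values were seen. The neutrophil growth factor gene Csf3 had 68 against 8.89 CPM (7.65, 4.46 to 14.4). Of 12 measured complement components 1 was higher and 4 were lower, with a median of -0.43. C1rb, C6 and C1s2 had 0.521, 1.33 and 2.03 CPM in Eed iKO-D, against 20.5, 24.6 and 16.4 CPM in Ctrl-D. C1rb and C1s2 are near-copies of C1ra and C1s1, which the counting could split between them, so their values are uncertain. Masp1, of the lectin pathway, had 38.5 against 78 CPM. Among Xist-only cells the ratios of C1rb, C6, C1s2 and Masp1 were 0.0133, 0.0437, 0.0609 and 0.281. Among Y-only cells they were 0.276 (0.02 to 3.8), 0.155 (0.0604 to 0.373), 1.10 (0.109 to 54.3) and 0.80 (0.527 to 1.25).

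Growth factors and Wnt genes of the stromal niche held members that were higher and members that were lower. At least 2-fold higher were 15.7% of all genes and at least 2-fold lower 11.9%, and the counts of several of these short lists lay near those shares. Of 26 measured growth factors and niche ligands, 6 were higher and 2 lower (median log2 ratio 0.33). Nrg1 (neuregulin 1), a ligand of ErbB receptors, had 209 CPM in Eed iKO-D and 7.52 CPM in Ctrl-D (27.8, 15.5 to 55.7). Eed iKO-D keratinocytes had 2436 CPM and Ctrl-D keratinocytes 432 CPM, and 5 adventitial-type cells held 37% of its Eed iKO-D UMIs. Nrg1 was seen in 21% of thinned Eed iKO-D and 1.18% of Ctrl-D adventitial-type cells, under the 43% and 5.98% of leukocytes. The part of other cells' RNA in the Nrg1 ratio was not tested. Of 20 measured Wnt genes, 4 were higher and 5 lower. Rspo3 and Rspo1, the R-spondins that amplify Wnt signals, had 4.4 and 0.985 CPM in Eed iKO-D, against 19.8 and 9.57 CPM in Ctrl-D, with ratios of 0.222 (0.143 to 0.353) and 0.103 (0.0477 to 0.225). The ratio of Rspo3 was 1.07 (0.352 to 5.34) among Xist-only cells and 0.0861 among Y-only cells. Of 9 genes around insulin-like growth factor binding, 2 were higher and 2 lower. Igfbp3 had 264 against 111 CPM (2.37, but 0.442 among Y-only cells) and Htra3, a secreted protease, 644 against 421 CPM (1.53). Of 19 TGF-beta and BMP genes, 4 were higher and 3 lower. Among them were Inhbb, at 20 against 8.21 CPM (2.44, 1.38 to 4.77), and Skil, a repressor of SMAD proteins, at 132 against 57.4 CPM (2.3, 1.85 to 2.89).

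Transcription factors of fibroblast identity were mostly under 2-fold apart. Of 25 measured, 2 were higher and 1 lower, and the higher ones were Runx1 and Runx2, at 42.6 CPM in Eed iKO-D and 9.57 CPM in Ctrl-D (4.45, 2.64 to 8.19). Hox genes, which PRC2 represses in many tissues and which record body position, had a median log2 ratio of -0.28 over 18 measured of 29, with 2 higher and 3 lower, beside 15.7% and 11.9% of all genes. Among Xist-only cells the Hox median was 0.36. The most abundant of the named ones, Hoxc8, had 40.4 CPM in Eed iKO-D and 84.1 CPM in Ctrl-D (0.48, 0.396 to 0.586). Of 10 measured PRC2 genes, 1 was lower, Phf1, an accessory subunit gene, at 5.33 against 11.6 CPM (0.458, 0.271 to 0.821), and 1 was higher, the accessory subunit gene Jarid2 at 130.3 against 52.7 CPM (2.47, 1.97 to 3.15), while the catalytic subunit gene Ezh2 had 22.9 and 19.8 CPM (1.16, 0.793 to 1.75) and Suz12, a core subunit, 37.4 and 30.1 CPM (1.24, 0.916 to 1.73). Jarid2 was higher in keratinocytes too, at 557 CPM in Eed iKO-D and 199 CPM in Ctrl-D.

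Lipid and fat-precursor genes had members in both directions. Of 14 measured adipogenic genes 4 were at least 2-fold higher and 3 lower, beside 15.7% and 11.9% of all genes. Their median log2 ratio of -0.15 turned sign with every cell weighted equally (0.19), among Xist-only cells (0.18), with a minimum of 50 UMIs (0.15) and when the sum had to be over 2 times the other (0.11). Lpl, the lipoprotein lipase, had 342 CPM in Eed iKO-D and 718 CPM in Ctrl-D (0.477, 0.446 to 0.509), and Cebpd, an early adipogenic factor, 454 against 1096 CPM (0.415, 0.393 to 0.438). The higher ones, named after their values were seen, were the fatty acid binding protein genes Fabp5, at 802 against 163 CPM (4.91, 4.32 to 5.6), and Fabp4, at 136 against 28 CPM (4.86, 3.57 to 6.79), the transcription factor gene Zfp423 (2.25, 1.43 to 3.77), and Cd36, a fatty acid transporter gene with 50 UMIs in Eed iKO-D and 0 in Ctrl-D. Cd36 counts as at least 2-fold higher only with the 0.5 UMI added, and not at the floor of 3 UMIs in Ctrl-D. Keratinocytes had 10663 CPM of Fabp5 in Eed iKO-D and 10825 CPM in Ctrl-D, and the part of keratinocyte RNA in the ratio was not tested. Of 16 markers of parenchymal and reticular fibroblasts 3 were higher and 4 lower, with a median of -0.47. Gpx3, a secreted antioxidant enzyme, had 638 against 2305 CPM (0.277, 0.266 to 0.288), seen in 59.9% and 87.6% of thinned cells against 4.36% and 0.598% of the leukocytes, and the transporter gene Abca8a 53.2 against 165 CPM (0.321, 0.279 to 0.372). Penk, which encodes enkephalins, had 9.79 against 61.5 CPM (0.159, 0.122 to 0.208). The papillary and follicle-associated markers, of which 14 could be measured, were low in adventitial-type cells, summing to 164 CPM in Eed iKO-D and 229.8 CPM in Ctrl-D, against 786 and 1080.5 CPM in the other fibroblasts.

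Genes of hypoxia and glycolysis tended higher in Eed iKO-D, and immediate-early genes were close. Of 22 hypoxia and glycolysis genes 5 were at least 2-fold higher and 0 lower, beside 15.7% and 11.9% of all genes, and the median log2 ratio was 0.38. The glucose transporter gene Slc2a1 had 72.2 CPM in Eed iKO-D and 19.1 CPM in Ctrl-D (3.77, 2.6 to 5.7), with 527 and 191 CPM in keratinocytes. Of 22 immediate-early and stress genes, 1 was higher and 0 lower, and the heat shock gene Hspa1b had 113 against 51.3 CPM (2.21, 1.75 to 2.82). Of 19 cell cycle genes 8 were lower, with a median of -0.90, but 5 Ctrl-D cells held 96.7% of the UMIs of 8 mitotic genes. With each cell weighted equally the median was 0.21, and without cells of second-type markers it was 0.49. Thinned cells with at least 2 UMIs of the 8 genes numbered 43 of 868 in Eed iKO-D and 3 of 169 in Ctrl-D.

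Of 26 measured proteases and their inhibitors, 4 were at least 2-fold higher and 4 lower, shares close to the 15.7% and 11.9% of all genes. The higher ones included Serpinb2, Mmp13 at 36.7 CPM in Eed iKO-D against 1 UMI in Ctrl-D (53.7, 9.6 to 2124), and the gelatinase gene Mmp9, with 122 UMIs in Eed iKO-D and 0 in Ctrl-D. Timp3, a matrix-bound inhibitor of metalloproteases, named after its values were seen, had 184 against 767 CPM (0.241, 0.225 to 0.258), while the other fibroblasts had a ratio of 0.774. Of 17 cytokine receptors 1 was higher, the oncostatin M receptor gene Osmr at 361 against 179 CPM (2.02, 1.78 to 2.29), and 0 lower. Of 11 complement regulators and receptors 2 were higher, the leukocyte receptor genes C3ar1 and C5ar1 with 0 UMIs in Ctrl-D, and 0 lower, and Csmd1, a regulator, had 297 against 220.2 CPM (1.35, 1.21 to 1.52). Wt1, a transcription factor gene of mesothelium and of some fibroblasts, was at least 10.9-fold higher in Eed iKO-D, with 387 UMIs in Eed iKO-D against 0 in Ctrl-D, and the other mesothelial markers Msln, Upk3b and Lrrn4 had 2, 1 and 2 UMIs in the Eed iKO-D cells.

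Markers of other cell types were mostly higher in Eed iKO-D. Class II presentation genes, made by myeloid and B cells, had 6 of 7 genes at least 2-fold higher in Eed iKO-D, where 15.7% of all genes were, and Cd74, the invariant chain, had 89.1 CPM in Eed iKO-D and 3 UMIs in Ctrl-D (43.4, 14.8 to 211). The thinned share of cells with Cd74 was 4.38% in Eed iKO-D adventitial-type cells, and 5 cells held 64.7% of its UMIs. The neutrophil gene S100a8 had 178 CPM in Eed iKO-D and 3 UMIs in Ctrl-D (86.9, 29.7 to 422), with 68.9% of its Eed iKO-D UMIs in 5 cells. Krt14 had 1474 CPM in Eed iKO-D and 165 CPM in Ctrl-D, and was seen in 74.4% and 24.9% of thinned cells, under the 93.5% and 41.6% of leukocytes. Cells with over 20 UMIs of keratinocyte markers per 10000, or at least 2 UMIs of leukocyte, endothelial or mural markers, were 89.1% in Eed iKO-D and 17.8% in Ctrl-D. The 2 UMIs were not scaled to depth, whose median was 19117 UMIs in Eed iKO-D and 7767 in Ctrl-D. The mural marker Abcc9 was seen in 16.2% of thinned Eed iKO-D adventitial-type cells, against 1.07% of the leukocytes. These shares therefore do not measure doublets, and no doublet caller was run. Endothelial markers summed to 35 CPM in Eed iKO-D and 24.6 CPM in Ctrl-D, with Cdh5 and Emcn among the 4 of 7 at 0 in Ctrl-D. Among mural markers Abcc9, a potassium channel subunit, had 98.2 against 29.4 CPM in adventitial-type cells and 24.5 against 1.46 CPM in the other fibroblasts. The part of other cells' RNA in the ratios above was not tested beyond these values.

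Because both libraries held cells with Xist and cells with Y-linked RNA, the same ratios were taken within each kind. With 0.5 UMI added, all 12 highest genes stayed at least 2-fold higher in Eed iKO-D in both kinds of cell. All 12 lowest stayed at least 2-fold lower among Xist-only cells and 11 among Y-only cells, where Rbp4 had a ratio of 0.706, against 0.0198 in Xist-only cells. Smpd3 had a ratio of 0.145 in Xist-only and 0.0623 in Y-only cells, and Igfbp6 of 0.36 and 0.251. Cxcl14 was 0.125 in Xist-only cells and 1.02 in Y-only cells. Isg15 had ratios of 0.219 and 0.606, and Col1a1 of 3.42 and 1.42, in the same order. Of 140 named genes with UMIs in the Ctrl-D cells of both kinds, 22 had ratios on opposite sides of 1. C7 had 4.02 in Xist-only and 0.526 in Y-only cells, C3 1.46 and 0.883, and Opcml 0.545 and 1.19. The libraries held these kinds of cell in unequal parts, and a ratio over all cells can then lie outside both. Dpt, above 1 over all cells, had 0.874 in Xist-only and 0.869 in Y-only cells. Cxcl13, close to 1 over all cells, had 1.44 and 2.61 in the same order. Differences between the kinds of cell were not tested.

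**Figure D5:**
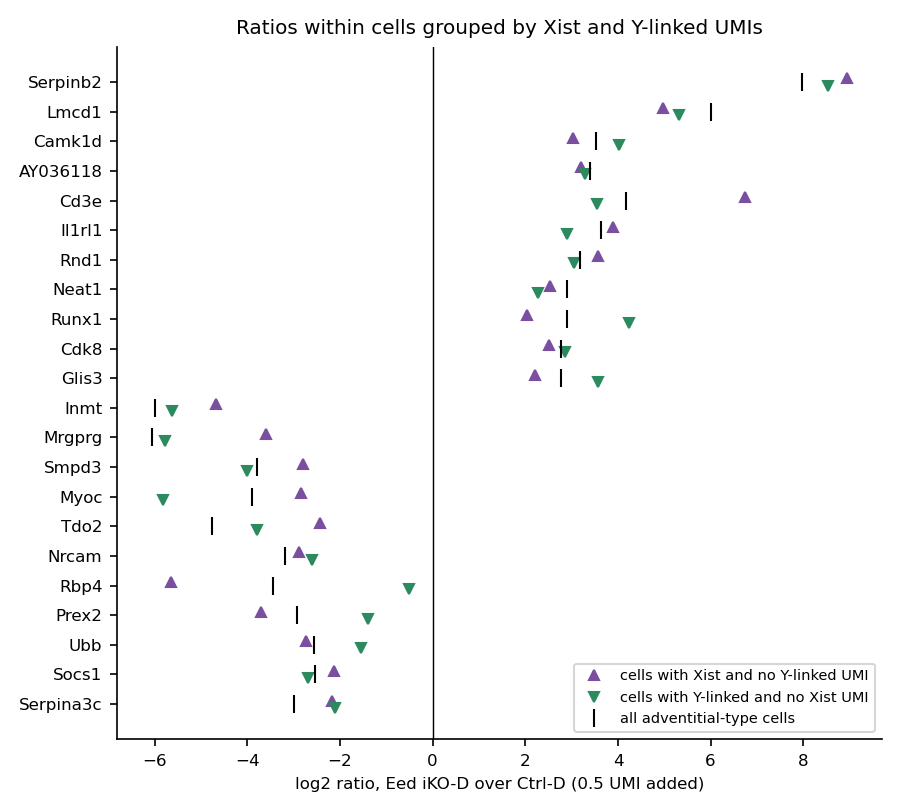
Log2 ratio of Eed iKO-D over Ctrl-D for 11 of the 12 highest and 11 of the 12 lowest genes, with 0.5 UMI added to each count. Triangles pointing up are cells with Xist and no Y-linked UMI, triangles pointing down the converse, and ticks all adventitial-type cells. Each gene shown keeps its direction, and Rbp4 in Y-only cells lies nearest to 0.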

How the data were processed

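Single-cell suspensions of dissociated tumours were captured with the 10X Chromium 3' v2 kit, per the labels' protocols, and mapped to mm10. The deposited files hold unnormalised UMI counts per gene and barcode from 2 libraries, per the file headers and values. The labels' protocols name Cell Ranger 2.1.0, the file headers 7.1.0 and the submitters' processing notes 8.0, so the version behind the counts is uncertain. From these counts UMIs were summed over the adventitial-type cells of a library and scaled to CPM of all genes (Python 3.11.15, pandas 2.3.3). Ratios carry 95% exact conditional binomial intervals (scipy 1.17.1), shares Clopper-Pearson intervals and counts Poisson ones, while a share of 0 is bounded at 3 cells of the total, which cover counting error only. Genes with at least 20 UMIs over both libraries were measured, 0.5 UMI was added for log2 ratios, and at least 2-fold was the call, with no test. Detection was set at 2000 UMIs per cell by thinning. Of the other gates, taken outside the collagen minimum, the keratinocyte gate needed at least 100 UMIs of Krt5 and Krt14 per 10000, the leukocyte gate 3 UMIs of Ptprc and of Cd3e, Cd3d, Cd3g, Tyrobp or Fcer1g with both kinds present, and the endothelial gate 3 UMIs of 7 endothelial markers.

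The 12 highest and 12 lowest genes had to reach 50 CPM, an interval wholly past 1.5-fold and, multiplied by 3, the highest level among the keratinocyte, leukocyte, endothelial and mural gates. They were ordered by the ratio after 5 CPM was added. Mitochondrial, ribosomal, haemoglobin, antibody, T cell receptor chain and unnamed gene models, Xist, Y-linked genes and the genes of the rule were left out. Some of the genes these rules name are not reported here. For each list up to 4 genes with the largest ratio in the direction of its median were named. The 12 higher and 8 lower genes against other fibroblasts were ordered by the weaker of both libraries. The cells, gene lists and rules were chosen with earlier results of these data known. Alternative scaling used TMM of edgeR 4.0.16. The ratios and their intervals were tested on simulated sums per gene, drawn with counting error only. The gates, thinning, lists and spread between cells were not simulated. No doublet caller was run. Promoters came from the RefSeq table for GRCm38.p6, and coordinates of genes from the GENCODE annotation of GRCm38.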

Additional observations from a re-analysis of the deposited data

Results flagged for a closer look

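Of 151 named genes with a ratio in both kinds of fibroblast (Ctrl-D above 0 UMIs), 40 had a ratio of Eed iKO-D over Ctrl-D on opposite sides of 1 in adventitial-type cells and in the other fibroblasts. For 8 genes, Col11a1 with 0 UMIs in Ctrl-D adventitial-type cells included, both 95% intervals lay wholly past 1.5-fold on opposite sides, and none of these differences was tested. The ratio of Rspo3 was 0.222 in adventitial-type cells and 5.16 in the other fibroblasts. Among adventitial-type cells it was 1.07 (0.352 to 5.34) in Xist-only and 0.0861 in Y-only cells. Lrrc15 had 4.08 and 0.598, Igfbp2 had 6.10 and 0.140 with 2 UMIs in the Ctrl-D adventitial-type cells, and Col11a1 had at least 4.40 and 0.421, in the same order of cells. The class II genes Cd74, H2-Ab1 and H2-Aa had 43.4, 9.29 and 9.04 in adventitial-type cells and 0.173, 0.156 and 0.198 in the other fibroblasts. Sfn, a keratinocyte gene, had 6.53 in adventitial-type cells and 0.575 in the other fibroblasts. Ctrl-D held 96 other fibroblasts.

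Between cells with Xist and cells with Y-linked RNA the intervals of the ratio lay past 1.5-fold on opposite sides for 2 of the genes named. Edn1 had a ratio of 2.80 among Xist-only and 0.304 among Y-only adventitial-type cells. Igfbp3 had 4.31 among Xist-only and 0.442 among Y-only cells. C7, with 4.02 and 0.526, came close, its interval among Y-only cells reaching 0.679. None of these differences was tested, and the animals behind each kind of cell are not given in the sources used here.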

How the results depend on the processing

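The share of adventitial-type cells among fibroblasts stayed lower in Eed iKO-D under each alternative that gave both shares. In Eed iKO-D it was 30.9% with a minimum of 4000 UMIs, 32.6% with a collagen and decorin minimum of 200, 24.6% without C3 in the sum, 24.1% without Dpt, 21.1% when the sum had to be over 2 times the other, and 31.4% among Xist-only cells. In Ctrl-D it was 54.0% with the collagen and decorin minimum of 200 and 70.9% with cells of second-type markers removed. Genes at least 2-fold higher numbered 792 without second-type cells, which leaves 95 cells in Eed iKO-D and 139 in Ctrl-D and fewer genes to measure, and 1179 among Y-only cells. Genes at least 2-fold lower numbered 1025 and 1076 in the same alternatives, and 6099 with no filter beyond 1 UMI, where genes with few UMIs in the smaller library are added by construction. The split by Xist and Y-linked RNA and the totals without Gm42418 were chosen after seeing the data.

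Of the log2 ratios of genes that were at least 2-fold apart with all cells, 21 changed sign, with 0.5 UMI added to each count. All did so on removal of second-type cells or in the split by sex-linked RNA. Without second-type cells the log2 ratio was -0.58 for C5ar1, C3ar1, H2-Ab1, Emcn, Egfl7 and Notch3, -1.24 for H2-Aa, 0.72 for Ube2c, 0.52 for Cdk1 and 2.22 for Cenpf. Among Xist-only cells it was -1.59 for C3ar1, 0.23 for Rsad2, 0.24 for Klf15, and 0.36 for Hoxb6 and Hoxa9. Among Y-only cells it was -0.27 for C3ar1, 0.0335 for Cxcl14, -1.41 for H2-Aa, 0.30 for H2-Q7, -1.18 for Igfbp3 and -1.86 for Plin4. The value of -0.58 shared by several genes without second-type cells is what equal counts in both libraries give. Plin4 had 0 UMIs in both libraries among Y-only cells, and C3ar1 had 0 in Ctrl-D in both kinds of cell. The signs of these values are set by the library totals and the 0.5 UMI added, and show no reversal in the UMIs. Klf15 and Hoxb6 had 0 UMIs in Ctrl-D among Xist-only cells, so the signs of their values there also depend on the 0.5 UMI added. Ratios under 2-fold apart are not among the 21, though some turned too, such as C7. The cause of the other changes of sign was not tested, except that removing second-type cells acts on leukocyte and endothelial genes by construction. Medians of class I genes ran between -1.38 and -0.78, of interferon genes between -1.01 and -0.42, of collagens between 0.50 and 0.89 and of tumour-side genes between 0.51 and 1.20. All 12 highest genes stayed at least 2-fold higher but for 1 without second-type cells. No paired analysis was possible because each group has 1 library. Depth limits genes under a few UMIs in the 169 Ctrl-D cells, where 0 UMIs cannot be told from a low level.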
